A study of Mus musculus with 3 samples.

Results

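Spinal cord monocytes and bone marrow monocytes from mice with experimental autoimmune encephalomyelitis (EAE) were compared gene by gene. The comparison used 2 of the 3 sequenced samples of the study, the pooled library of each monocyte population, and took in all 54432 genes that both libraries list. EAE is an induced autoimmune disease of the central nervous system (CNS) and a mouse model of multiple sclerosis. The third sample, monocyte-derived antigen-presenting cells of the spinal cord, was not used here. Both populations came from wild-type (WT) female C57BL/6J mice of 10 to 12 weeks, immunized with a peptide of myelin oligodendrocyte glycoprotein (MOG) in complete Freund's adjuvant. All of them received 250 ng of pertussis toxin 2 and 24 h after the emulsion, so no library came from healthy animals. Cells were taken at days 14 to 15, at the height of disease. Spinal cord monocytes were sorted as CD45+ CD11b+ CD64+ Ly6Chi Ly6G- cells from 18 mice in 3 experiments, after collagenase digestion at 37 °C for 30 min and a Percoll gradient. Bone marrow monocytes were flushed from the bones of 13 mice in 2 experiments, enriched magnetically, with no digestion stated, and sorted as CD45+ CD11b+ Ly6Chi Ly6G- CD11c- cells. With 1 library per population there is no replicate check, so differences between tissues, preparations, sorts and sequencing runs cannot be told apart, and no p-value is given.

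Monocytes are made in the bone marrow from dividing precursors and leave it through the chemokine receptor CCR2. In an inflamed tissue they meet cytokines, damaged cells and low oxygen, and can turn into macrophages or antigen-presenting cells. The arginine-consuming enzymes NOS2 and ARG1, the MHC class II genes and the interferon-induced GTPases are classical readouts of that activation.

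The libraries held 33280480 reads for bone marrow and 27283596 reads for spinal cord monocytes, counted per gene. Levels below are TPM, each gene's share of all transcripts on a scale with the same total in both libraries, corrected for transcript length. Fold changes are log2 ratios of spinal cord over bone marrow reads after median-of-ratios scaling, each with a 98% interval that covers counting error only. A gene was active at over 3 TPM in at least 1 library, as 11197 genes were. An active gene was called higher or lower in the spinal cord where its whole interval lay beyond a 2-fold difference. By this rule 1371 genes (12.2% of active genes) were called higher and 1587 (14.2%) lower. Counts of called list members below are to be read beside these shares. The median log2 ratio of all active genes was -0.34. Scaling on genes with at least 10 reads in both libraries moved that median to -0.05 and gave 1659 higher and 1037 lower calls, moving the share of higher calls from 46.3% to 61.5%, and scaling on protein-coding genes moved it to 58.1%. Some genes named below lost their lower calls under scaling on genes with at least 10 reads. They were Alox5ap, Amd1, Atp6v1b2, Cat, Cd79b, Cybb, Fh1, Idh2, Lta4h, Lyz2, Ms4a6c, Tlr8, Tlr13 and Xiap. Gapdh, Mbp, Gfap and Gja1 lost their calls where reads were divided by effective length. Under all 6 scalings tried, 1316 genes were called higher and 1015 lower. Counts were smaller where a spread between libraries was assumed. At a coefficient of variation of 0.4, which stands in for the unmeasured replicate error, 638 genes were called higher and 273 lower, and this is named below as the assumed spread. Below, paired values give bone marrow first, and bare values in brackets are log2 fold changes.

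The difference between the libraries was lopsided in size. Among called genes, 658 were higher by over 3 on the log2 scale and 267 were lower by as much. Genes called higher took 4.51% of all TPM in bone marrow and 24.1% in spinal cord monocytes, and those called lower went from 17.6% to 5.72%. Across active genes Pearson's r of log2(TPM + 1) was 0.754, a description across genes, which are not replicates. Fth1, the heavy chain of the iron store ferritin, stood at 1132 TPM in the marrow and 16819 TPM in the spinal cord, where it was the most abundant protein-coding gene. Lyz2, the lysozyme of myeloid cells, led the protein-coding genes of bone marrow monocytes with 29316 TPM and had 12208 TPM in the spinal cord.

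**Figure D1:**
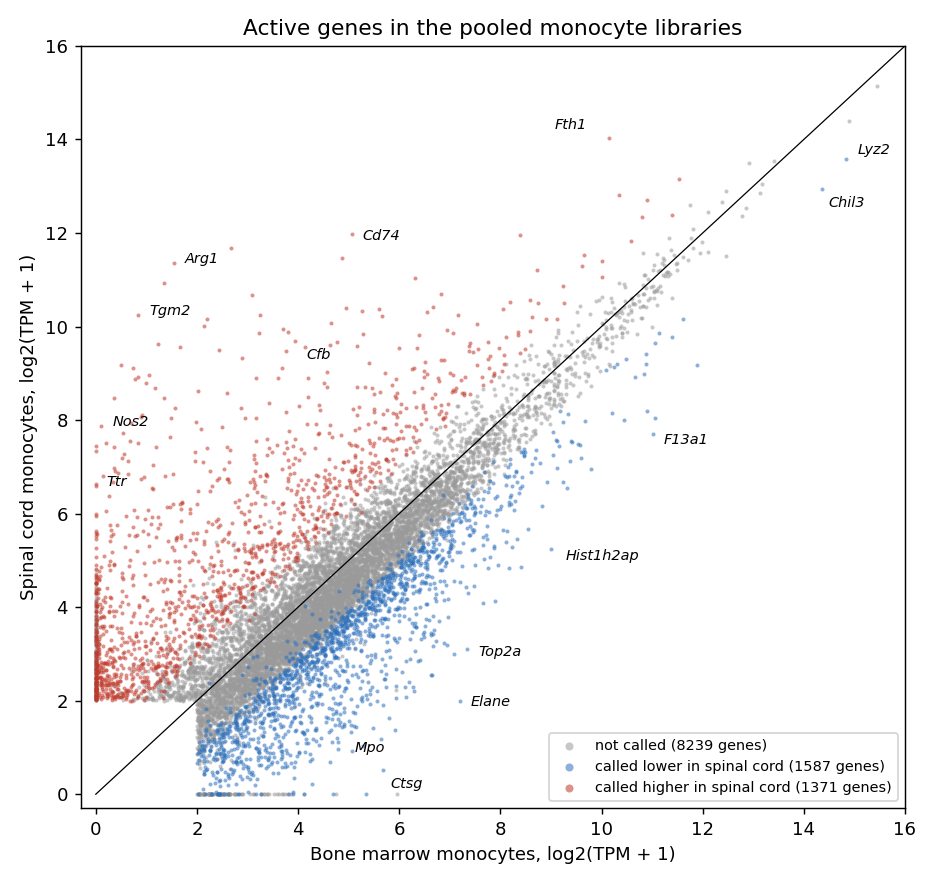
Each point is 1 of 11197 active genes, with its level in bone marrow monocytes on the x axis and in spinal cord monocytes on the y axis, both as log2(TPM + 1); the line marks equal levels. Red genes were called higher in the spinal cord (1371) and blue genes lower (1587), and the red cloud reaches farther from the line, with Nos2, Tgm2 and Arg1 close to the left edge.

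Genes were ordered by the bound of the interval nearest to 0, which favours well-counted differences. Nos2, the inducible nitric oxide synthase, came first and had 8 reads in bone marrow and 20683 in spinal cord monocytes, which scales to a log2 ratio of 11.46 (98% interval 10.45 to 12.76). Tgm2, a transglutaminase that cross-links proteins, went from 0.786 to 1207 TPM (10.64, 98% interval 10.25 to 11.07). Arg1, which splits arginine into ornithine and urea, went from 1.92 to 2641 TPM (10.47, 98% interval 10.06 to 10.93). Genes that followed included AA467197, Il1a and Il1b, all with log2 fold changes above 9. AA467197 had 1.56 and 1948 TPM in bone marrow and spinal cord. The interleukin 1 genes Il1a and Il1b, whose products start inflammation, reached 356 and 3259 TPM in the spinal cord from 0.278 and 5.41 TPM. Dab2, an adaptor of endocytosis, rose from 0.144 to 182 TPM. Among protein-coding genes in the other direction, the order began with Rem1, Ctsg, Elane, Ppbp and Mpo. Rem1, a small GTPase, had 404 reads in bone marrow and 1 in spinal cord monocytes (-7.68, 98% interval -11.18 to -5.69). Ppbp, a platelet chemokine, had 380 and 3 reads (-6.46, 98% interval -8.62 to -4.997). The signal regulator Rgs18 fell from 48.6 to 1.25 TPM, and Hal, which breaks down histidine, from 17.9 to 0.636 TPM.

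The sequence upstream of the start site is shown for genes at both ends of this order, the first pair in each direction with RefSeq windows free of annotated exons, so that a reader can see where short motifs lie. The windows are the 250 bases before the start on GRCm38.p6, 5′ to 3′ on the strand of the gene, with motif matches in capitals. Il1a lies at chr2:129309973-129310222 on the minus strand and its capitals mark an AP-1 match. Il1b lies at chr2:129371140-129371389, minus strand, without a match. Ctsg is at chr14:56102575-56102824 on the minus strand, with a CHR match in capitals, and Ppbp at chr5:90768268-90768517 on the plus strand, with an AP-1 match.
Il1a: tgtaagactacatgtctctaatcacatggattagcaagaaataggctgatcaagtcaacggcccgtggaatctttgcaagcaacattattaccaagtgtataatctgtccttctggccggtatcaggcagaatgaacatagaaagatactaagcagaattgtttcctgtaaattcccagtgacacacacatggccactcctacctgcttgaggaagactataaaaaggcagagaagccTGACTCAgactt
Il1b: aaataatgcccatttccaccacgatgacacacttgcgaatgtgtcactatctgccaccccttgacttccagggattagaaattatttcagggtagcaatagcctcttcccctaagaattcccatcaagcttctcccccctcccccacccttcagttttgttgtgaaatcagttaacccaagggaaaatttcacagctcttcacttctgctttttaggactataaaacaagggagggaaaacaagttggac
Ctsg: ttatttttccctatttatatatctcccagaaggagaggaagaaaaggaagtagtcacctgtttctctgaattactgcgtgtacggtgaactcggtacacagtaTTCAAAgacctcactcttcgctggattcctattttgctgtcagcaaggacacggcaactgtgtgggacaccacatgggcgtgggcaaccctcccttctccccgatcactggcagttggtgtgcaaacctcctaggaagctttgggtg
Ppbp: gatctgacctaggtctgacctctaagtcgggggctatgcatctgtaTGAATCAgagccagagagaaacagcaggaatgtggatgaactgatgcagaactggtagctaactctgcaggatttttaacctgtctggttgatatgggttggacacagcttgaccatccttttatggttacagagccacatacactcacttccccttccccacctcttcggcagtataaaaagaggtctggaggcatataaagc
The shares below use all windows of this length, with or without annotated exons. Of these, 1216 belonged to 924 genes called higher and 1543 to 1210 genes called lower. Called genes without a window, Nos2, Tgm2 and Arg1 among them, are not in these shares. The AP-1 letters TGANTCA were found, on either strand, in 9.38% of windows of genes called higher, 3.63% of those called lower, 4.02% of active genes not called and 6.75% of all 32851 windows. The NF-kB motif was found in 8.06%, 3.31%, 4.17% and 3.9% in the same order. For the interferon-response motif ISRE, GAAA repeated after a gap of 2 bases, the shares were 5.26%, 2.79%, 2.77% and 2.98%. CHR, with the letters TTTGAA, was in 11.5%, 15.5%, 10.3% and 16%, and E2F, with TTTGGCGC or TTTCCCGC, in 1.48%, 3.43%, 2.58% and 1.3%. The cyclic AMP motif CRE, TGACGTCA, was in 2.71%, 1.43%, 2.98% and 1.55%. These are counts of letters, not binding sites, and no test was made of them.

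The genes of the antibodies used in the sort are given as a description. Gates shared by both populations cannot tell their labels apart. Ptprc, which encodes CD45, had 358 and 226 TPM in bone marrow and spinal cord monocytes, and Itgam, for CD11b, had 412 and 455 TPM. Neither was called. Ly6g, the neutrophil antigen gated out of both, was under the threshold of activity in both, at 2.18 and 1.46 TPM. Ly6c2 stood at 4421 and 3072 TPM (-0.498) and its close paralog Ly6c1, with which it can share reads, at 57.9 and 65 TPM (0.43). Fcgr1 (CD64) and Itgax (CD11c) were called higher in the spinal cord, but the spinal cord sort alone selected CD64 and the bone marrow sort alone removed CD11c, so neither is a finding.

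**Figure D2:**
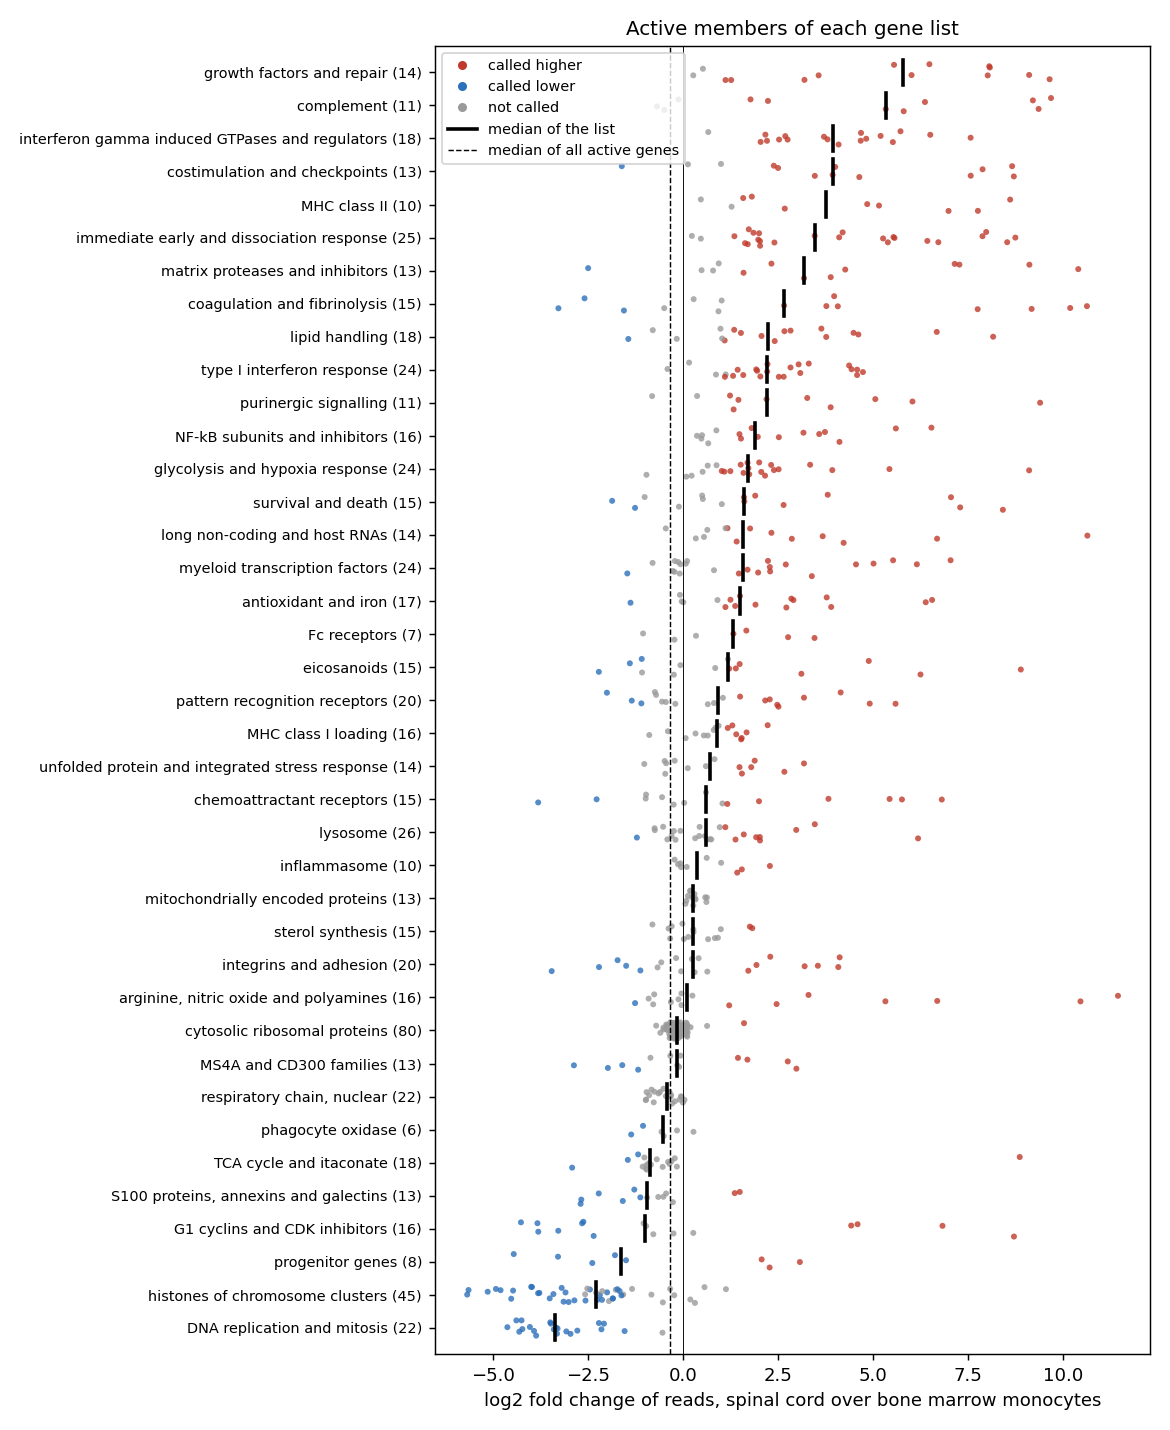
Each point is an active member of a gene list (number of active members in brackets), placed by its log2 fold change of reads, spinal cord over bone marrow; black bars are list medians and the dashed line is the median of all active genes, -0.34. List medians run from -3.36 for DNA replication and mitosis to 5.79 for growth factors and repair, and genes of ribosomal proteins and the nuclear respiratory chain sit close to the dashed line.

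Once a spread between libraries was assumed, calls over all active genes went from 1371 to 638 higher and from 1587 to 273 lower. Beside these totals lists moved unequally, and several of them dropped by a share near that of all active genes. Counts of higher calls went from 20 to 8 for the type I interferon response, from 23 to 13 for immediate early genes, from 13 to 6 for lipid handling, from 12 to 6 for iron and oxidant defence, from 9 to 3 for lysosomes and from 9 to 4 for pattern recognition receptors. They went from 12 to 10 for growth factors, from 8 to 6 for complement, from 10 to 8 for costimulation, from 9 to 7 for matrix proteases and from 8 to 7 for coagulation. For MHC class II they went from 8 to 5, for NF-kB from 11 to 6, for purinergic genes from 9 to 5, for transcription factors from 13 to 6, for survival and death from 8 to 4 and for eicosanoids from 7 to 4. Of replication and mitosis genes 16 of 21 were called lower, and of primary granule genes 4 of 6.

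Genes of classical monocytes were lower as a group in the spinal cord. Of 14 genes listed as markers of Ly6C-high monocytes, all active, 10 were called lower and 0 higher, with a median log2 fold change of -1.47 beside -0.34 for all active genes. F13a1, the coagulation factor XIII subunit that monocytes carry, fell from 2059 to 208 TPM (-3.27, 98% interval -3.30 to -3.25). Vcan, a matrix proteoglycan, fell from 319 to 42.8 TPM, and Ccr2, the receptor for exit from the marrow, from 1384 to 255 TPM (-2.27, 98% interval -2.29 to -2.24). Hp, haptoglobin, had 1825 and 503 TPM (-1.79). Chil3, a chitinase-like secreted protein, fell from 20885 to 7838 TPM (-1.34). The 4 members not called, Ly6c2, Plac8, Ms4a4c and Mgst1, had log2 fold changes from -1.03 to 0.498. With the assumed spread 1 member was called lower, F13a1. Of the 10 markers of Ly6C-low monocytes, 2 were called higher, Nr4a1 and Ace, and 2 lower, Spn and Pou2f2. With so few genes these counts are near the 12.2% and 14.2% of all active genes, and show no direction of the subset. Nr4a1, an orphan nuclear receptor needed by Ly6C-low monocytes, is also an immediate early gene and rose from 34.9 to 419 TPM, whereas Cx3cr1, the fractalkine receptor of that subset, was not called at 75.1 and 34.5 TPM.

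The marrow side also held genes of earlier myeloid stages. Of 7 genes for the enzymes of primary granules, which are made in precursors, 6 were active and all of those were called lower in the spinal cord. Ctsg, cathepsin G, had 929 reads in bone marrow and 7 in spinal cord monocytes (-6.69, 98% interval -8.09 to -5.62). Elane, neutrophil elastase, fell from 146 to 2.98 TPM, and Mpo, myeloperoxidase, from 59.1 to 1.58 TPM. Prtn3, proteinase 3, was the most abundant of them in the spinal cord, at 48.3 TPM against 279.8 TPM in the marrow (-2.67). Genes that mark neutrophils moved in both directions. Of 12 markers, 11 were active, 7 were called lower and 3 higher. The granule genes Lcn2, Camp, Ngp, Ltf and Mmp8 were called lower, and so were S100a8 and S100a9, at 3797 and 1906 TPM in the marrow and 579 and 294 TPM in the spinal cord. Those called higher were Retnlg, Stfa2l1 and Cxcr2, the receptor for neutrophil chemokines, with 7.76 TPM in the spinal cord from 2.18. Ly6g was inactive in both libraries and its antigen gated out of both. The part of neutrophils or precursors in the granule genes was not tested. In bulk libraries fewer cells of a type and less RNA per cell cannot be told apart.

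Genes of stem and progenitor cells changed in both directions. Of 15 on the list 8 were active, 5 called lower and 3 higher. Myb, a transcription factor of dividing blood precursors, fell from 7.63 to 0.324 TPM (-4.45, 98% interval -5.23 to -3.78). Flt3, the receptor tyrosine kinase of early precursors and dendritic cells, fell from 32.1 to 3.11 TPM (-3.28, 98% interval -3.51 to -3.06), and Tifab, Cebpe and Cd93 were also called lower. The members called higher were Myc, a growth regulator, at 5.75 and 26.6 TPM, with Sox4 and Cd34.

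Cell cycle genes fell with more than mitosis. Of the 22 replication and mitosis genes, all active, 21 were called lower, with a median of -3.36. The replication helicase genes Mcm2 to Mcm7 had log2 fold changes from -3.39 for Mcm7 to -1.53 for Mcm4. Pcna, the sliding clamp of DNA polymerase that also serves repair, was the member not called, at 245 and 166 TPM (-0.53). Histone genes of the chromosome clusters, transcribed during DNA synthesis, went the same way. Of 67, 45 were active, 29 were called lower and 0 higher, with a median of -2.28. Hist1h2ap, the most abundant of them in the marrow, fell from 513 to 36.7 TPM (-3.77, 98% interval -4.03 to -3.53). Histone genes are close copies that can share reads, and with the assumed spread 7 were called. Hist1h1c, a linker histone that is also made outside DNA synthesis, was not called, at 33.3 and 47.2 TPM.

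Regulators of entry into the cycle changed in opposite directions. Of the 16 genes listed, 7 were called lower and 4 higher. Among the D cyclins, which drive the start of the cycle, Ccnd3 fell from 276 to 40.99 TPM (-2.62, 98% interval -2.71 to -2.52). Ccnd1, by contrast, had 2 reads in bone marrow and 956 in spinal cord monocytes (8.72, 98% interval 7.06 to 11.34), and Ccnd2 rose from 0.212 to 15.3 TPM (6.84). The inhibitors of cyclin-dependent kinases were divided too. Cdkn1a, which encodes p21, rose from 22.9 to 522 TPM (4.60, 98% interval 4.49 to 4.72). Cdkn2c and Cdkn2d, for p18 and p19, fell by 3.82 and 2.35 on the log2 scale. Ccne1, Ccne2, E2f2 and E2f8, which act at the start of DNA synthesis, were all called lower.

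Genes of arginine metabolism were called at a few steps. Of 16 genes of arginine, nitric oxide and polyamine metabolism, 7 were called higher and 1 lower. Besides Nos2 and Arg1, the cationic amino acid transporter Slc7a2 rose from 1.18 to 131 TPM (6.70, 98% interval 6.46 to 6.96). Arg2, the mitochondrial arginase, rose from 1.87 to 72.9 TPM. Ass1, which with Asl remakes arginine from citrulline, rose from 117 to 618 TPM (2.47), while Asl was not called, at 36.1 and 33.5 TPM. The genes that take ornithine into polyamines changed unequally. Odc1, the first enzyme, rose from 35.8 to 226 TPM (3.31, 98% interval 3.19 to 3.43), Amd1, which makes the aminopropyl donor, fell from 53.05 to 23.3 TPM (-1.25), and Srm, spermidine synthase, was not called (-0.03, 98% interval -0.27 to 0.20). Gch1, the first enzyme of the cofactor tetrahydrobiopterin, was called higher (1.22, 98% interval 1.08 to 1.37), and the later enzymes Pts (-0.78) and Spr (-0.31) were not.

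Genes of glycolysis and of the response to low oxygen were higher. Of 25 genes 24 were active, of which 18 were called higher and 0 lower, with a median of 1.72. Vegfa, a growth factor for vessels, rose from 0.778 to 484 TPM (9.12, 98% interval 8.69 to 9.60). Slc2a1, the glucose transporter GLUT1, rose from 20.3 to 317 TPM (3.94, 98% interval 3.84 to 4.03). Egln3, an oxygen-sensing hydroxylase, had 1.67 and 69.2 TPM, and Hif1a, the hypoxia-inducible factor, 64.98 and 325 TPM (2.33). Among the enzymes, Pfkfb3, which raises the activator of phosphofructokinase, rose by 3.35, Tpi1 by 2.17, Ldha by 1.73 and Gapdh by 1.03 on the log2 scale. Pkm (0.66), Eno1 (0.52), Pgam1 and Gpi1 were not called, nor was Hk1 (0.09), whereas Hk2 (1.75) and Hk3 (1.53) were. With the assumed spread 4 members were called.

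Genes of mitochondrial metabolism were called at shares near or below those of all active genes, 12.2% higher and 14.2% lower. Among 18 genes of the tricarboxylic acid cycle and itaconate synthesis, 1 was called higher and 3 lower, or 1 lower under scaling on genes with at least 10 reads. The gene called higher was Acod1, which makes itaconate from a cycle intermediate, with 0.992 and 445 TPM (8.87, 98% interval 8.46 to 9.33). Idh1, a cytosolic isocitrate dehydrogenase, fell from 299.6 to 38.2 TPM (-2.91, 98% interval -2.997 to -2.83), the mitochondrial Idh2 by 1.17 and fumarase, Fh1, by 1.45, the latter pair of calls lost under that scaling. The other 14 had log2 fold changes from -1.05 for Ogdh to -0.15 for Idh3b. None of 22 nuclear genes of the respiratory chain was called, with values between -0.97 for Ndufs1 and 0.05 for Cox7a2. None of 13 protein genes of the mitochondrial genome was called, with values between 0.07 for mt-Nd5 and 0.64 for mt-Co1. Their medians were -0.41 and 0.28, both without replicate error. Of 80 active genes for ribosomal proteins Rpl12 alone was called. The median of -0.14 turned to 0.15 under scaling on genes with at least 10 reads, so the direction of that group depends on the scaling.

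**Figure D3:**
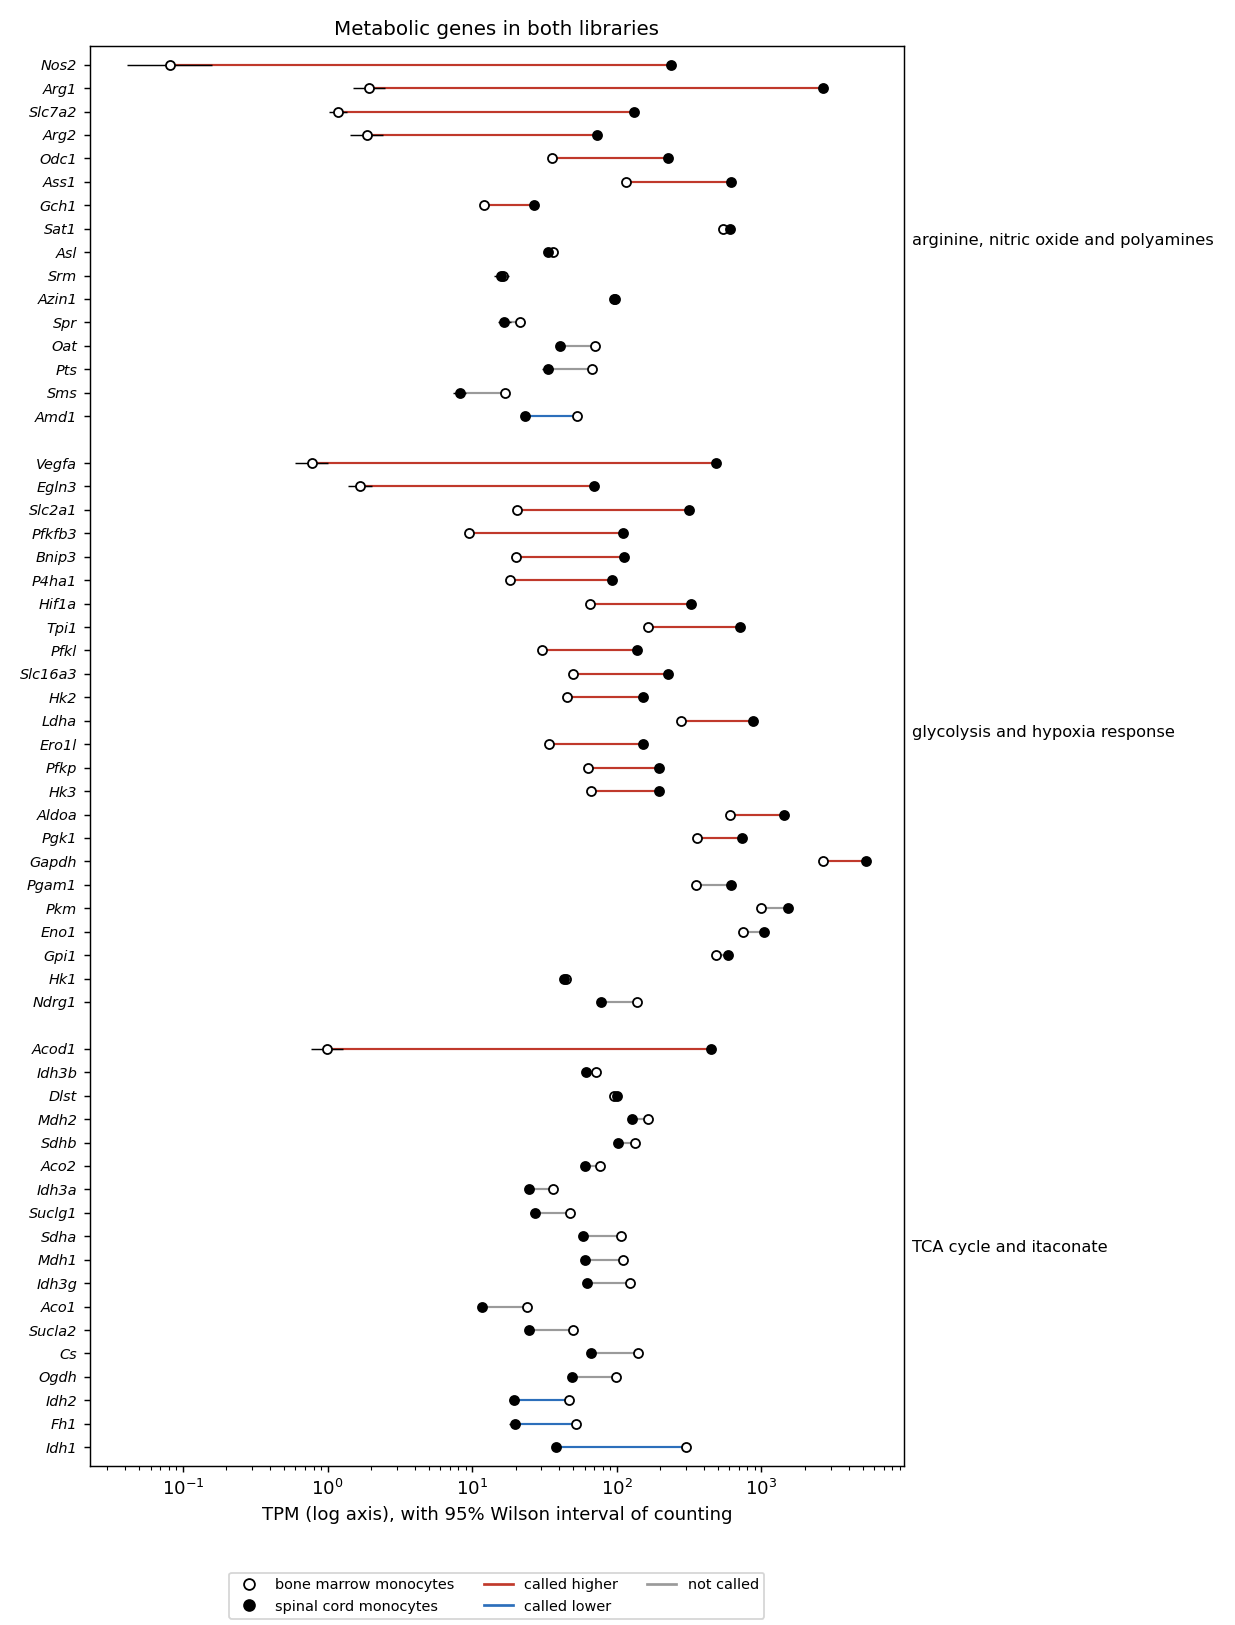
Levels in TPM (log axis) of the active genes of arginine, glycolysis and tricarboxylic acid cycle lists in bone marrow (open circles) and spinal cord monocytes (filled circles), 1 pooled library each; bars are 95% Wilson intervals of counting and line colour gives the call. Nos2, Arg1, Vegfa and Acod1 show the widest gaps, while most genes of the tricarboxylic acid cycle differ by little or are lower in the spinal cord.

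Most genes of lipid handling, and of iron and oxidant defence, were called higher. Of 20 genes of lipid handling 18 were active, 13 called higher and 1 lower. Apoe, the lipoprotein that carries cholesterol out of cells, rose from 1307 to 7158 TPM (2.42, 98% interval 2.40 to 2.45). Abca1, the cholesterol exporter, went from 1.68 to 41.6 TPM and its regulator Nr1h3 from 0.427 to 9.83 TPM. Spp1, osteopontin, had 6.42 and 639 TPM (6.69), and Gpnmb, a glycoprotein of lipid-laden macrophages, 12.8 and 169 TPM (3.78). Ch25h, which makes 25-hydroxycholesterol, had 0 reads in bone marrow and 169 in the spinal cord. Against a floor of 3 reads in a library without any, it was at least 66.3-fold higher there. Lpl, lipoprotein lipase, was called lower (-1.43, 98% interval -1.53 to -1.34). For sterol synthesis, 2 of 15 active genes were called higher, Insig1 (1.83) and Cyp51 (1.77), a share near the 12.2% of all active genes, and 0 lower.

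Of 19 genes of iron and oxidant defence 17 were active, 12 called higher and 1 lower. Fth1 rose by 3.91 on the log2 scale (98% interval 3.88 to 3.93), and its partner Ftl1 was not called (0.91, 98% interval 0.90 to 0.93), at 3422 and 6218 TPM. Slc7a11, which imports cystine for glutathione, rose from 0.592 to 31.04 TPM (6.56, 98% interval 6.14 to 7.03). The metallothionein Mt2 had 3 and 262 reads (6.40, 98% interval 4.93 to 8.56). Sod2, the mitochondrial superoxide dismutase, rose from 51.9 to 515 TPM, and Hmox1, which breaks down heme, from 103 to 374 TPM. Cat, catalase, fell from 63.6 to 23.2 TPM (-1.37). The phagocyte oxidase, the source of superoxide in these cells, had 0 of 6 genes called higher and 2 lower, Cybb (1211 and 560.2 TPM, -1.05) and Rac2 (-1.36).

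Lysosomal genes were divided. Of 26, all active, 9 were called higher and 1 lower. Those called higher were mostly proteases, with Ctss, cathepsin S, at 1781 and 5185 TPM (1.61, 98% interval 1.59 to 1.62), Ctsd at 386 and 1506 TPM (2.03), and Lgmn, legumain, at 56.7 and 432 TPM (2.99). The proteases Ctsb (0.75) and Ctsc (0.63) were not called. Subunits of the vacuolar ATPase were divided, with Atp6v0d2 (6.19) and Atp6v0c (1.12) called higher and Atp6v1b2 (-1.21) lower. Lamp1 (-0.19), Lamp2 (-0.41) and Psap (-0.29) were not called, and neither was Tfeb (-0.73), the regulator of lysosome genes. Its relative Mitf was, at 10.3 and 37.6 TPM.

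Complement genes differed by member. Of 14 genes 11 were active, 8 called higher and 0 lower. The subunits of C1q, which starts the classical pathway, moved together. C1qa went from 0.661 to 554 TPM (9.69, 98% interval 8.87 to 10.70), C1qb from 1.34 to 786 TPM (9.22) and C1qc from 0.715 to 471 TPM (9.37). Cfb, factor B of the alternative pathway, rose from 14.4 to 824 TPM (5.82, 98% interval 5.70 to 5.93), and the anaphylatoxin receptors C3ar1 and C5ar1 rose by 6.38 and 1.78. C3, on which the pathways converge, was not called, at 715 and 492 TPM (-0.49), nor was the regulator Cfp (-0.11). Microglia make C1q as well, and their markers, given below, were higher in the same library. The part of microglial RNA in the C1q values was not tested.

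Receptors for antibodies and microbes changed selectively. Of 7 Fc receptor genes 4 were called higher and 0 lower, counting Fcgr1 of the spinal cord gate, with Fcgr4 at 39.1 and 415 TPM (3.47) and Fcgr2b, the inhibitory receptor, at 133 and 929 TPM (2.77). Fcer1g, their shared signalling chain, was not called, at 1186 and 1474 TPM. Of 21 pattern recognition receptors 20 were active, 9 called higher and 3 lower. Cd14, the co-receptor for lipopolysaccharide, rose from 78.6 to 2087 TPM (4.92, 98% interval 4.85 to 4.996), Tlr2 from 88.7 to 481 TPM (2.52) and the C-type lectin Clec4e from 80.6 to 741 TPM (3.19). The toll-like receptors of endosomes were not higher, except Tlr3 (2.17). Tlr7 (-0.55) and Tlr9 (-0.70) were not called, and Tlr8 (-1.09) and Tlr13 (-1.34) were called lower, both calls lost under scaling on genes with at least 10 reads. Of 10 inflammasome genes 3 were called higher, Nlrp3 (2.29, 98% interval 2.22 to 2.37), Casp4 (1.55) and Nlrp1b (1.43), while Casp1 (-0.06) and the adaptor Pycard (-0.12) were not called.

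**Figure D4:**
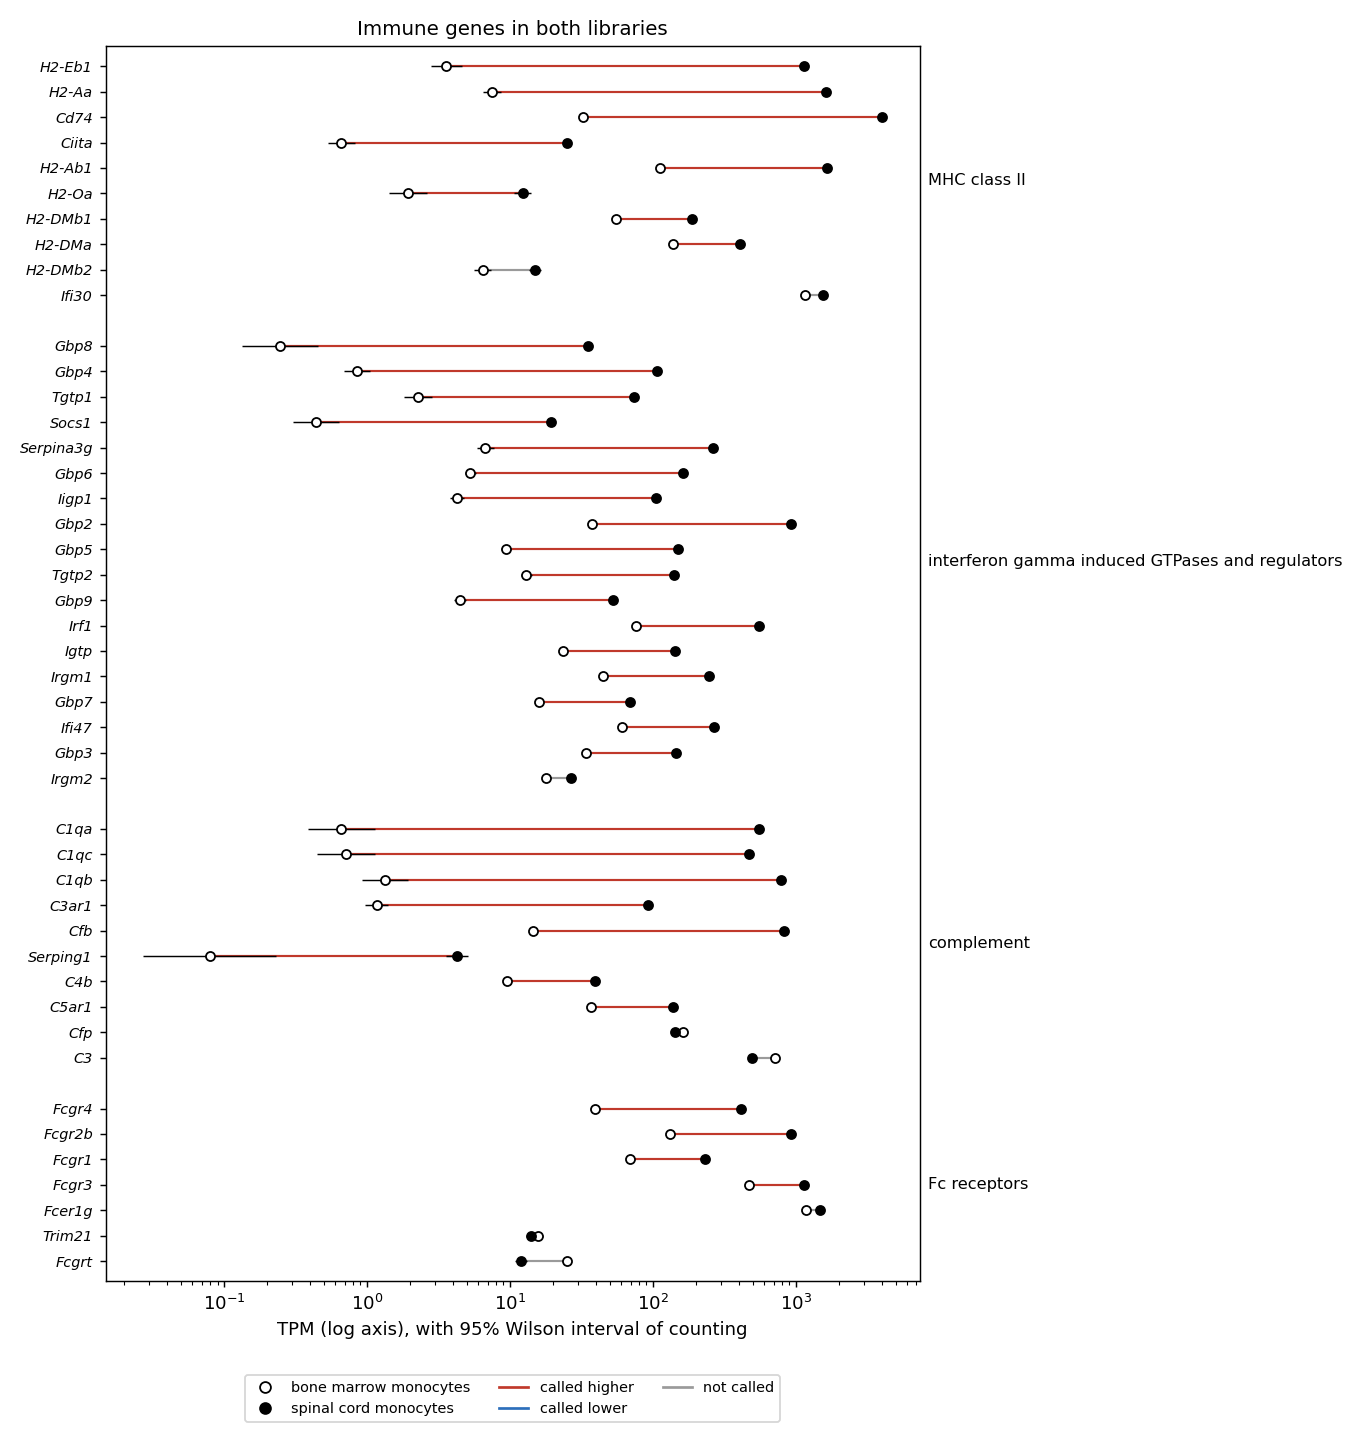
Levels in TPM (log axis) of active genes of the MHC class II, interferon gamma, complement and Fc receptor lists in bone marrow (open circles) and spinal cord monocytes (filled circles), 1 pooled library each; bars are 95% Wilson intervals of counting and line colour gives the call. The C1q subunits and H2-Eb1 show the widest gaps, and C3 and Fcer1g lie close in both libraries.

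Interferon-induced genes were higher almost throughout. Of 18 genes induced by interferon gamma 17 were called higher and 0 lower, with a median of 3.96. Gbp2, of the guanylate-binding proteins, GTPases that attack vacuoles of pathogens, was at 37.8 and 922 TPM (4.68, 98% interval 4.61 to 4.76). Irf1, the transcription factor upstream of many of them, rose from 76.8 to 554 TPM (2.76), and Socs1, a brake on interferon signalling, from 0.441 to 19.4 TPM (5.53). Irgm2 was the member not called (0.67, 98% interval 0.55 to 0.79). Of 24 genes of the type I interferon response 20 were called higher and 0 lower, with a median of 2.23. Rsad2, viperin, rose from 2.64 to 67.7 TPM (4.74, 98% interval 4.53 to 4.97) and Isg15, a ubiquitin-like protein, from 21.7 to 441 TPM (4.38). With the assumed spread 11 and 8 members of these lists were called.

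Genes of antigen presentation by both MHC classes were called higher. Of 10 class II genes 8 were called higher, with a median of 3.77, and of 16 class I genes 7, with a median of 0.90. The lists were not tested against each other. H2-Eb1 went from 3.597 to 1151 TPM (8.62, 98% interval 8.21 to 9.06), and Ciita, the master regulator of class II genes, from 0.662 to 24.95 TPM (5.17). H2-DMa and H2-DMb1, which edit the peptides that class II molecules hold, rose by 1.59 and 1.82. Among class I genes, B2m, the invariant light chain, rose from 2954 to 9167 TPM (1.68, 98% interval 1.66 to 1.70) and Nlrc5, the regulator of class I genes, by 2.24. H2-D1 (0.66) and the immunoproteasome subunits Psmb8 (0.82), Psmb9 (0.86) and Psmb10 (0.56) were not called, and with the assumed spread 0 class I genes were. H2 genes have close copies that can share reads.

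Ligands and receptors for T cells rose on both the activating and the inhibiting side. Of 16 genes 13 were active, 10 called higher and 1 lower. The costimulators Cd80 and Cd86 had 11.1 and 22.1 TPM in bone marrow and 47.5 and 122 TPM in spinal cord monocytes. Cd274, which encodes PD-L1, rose from 1.56 to 352 TPM (7.89, 98% interval 7.61 to 8.19), and Pdcd1lg2, for PD-L2, from 1 to 580 reads (8.67, 98% interval 6.68 to 12.17). Cd83, a marker of mature antigen-presenting cells, rose from 0.293 to 119 TPM (8.71). Vsir, the checkpoint protein VISTA, was the member called lower, at 409 and 145 TPM (-1.60, 98% interval -1.65 to -1.56). Ido1 was not active.

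Several transcription factors that define myeloid lineages were not called, and factors of activation rose. Of 24 listed 13 were called higher and 1 lower. Spi1, which encodes PU.1, was not called at 495 and 382 TPM (-0.21), and Irf8 (0.08), Cebpa (-0.12) and Klf4 (0.82) were not either. Ets2 rose from 1.79 to 264 TPM (7.05, 98% interval 6.79 to 7.33) and Bhlhe40 from 7.93 to 475 TPM (6.16). The CCAAT-binding factors parted, with Cebpb called higher (1.98) and Cebpd lower (-1.46). Of 16 genes of the NF-kB system 11 were called higher and 0 lower. Its feedback inhibitors were among those, with Tnfaip3 at 11.2 and 474 TPM (5.61, 98% interval 5.503 to 5.72) and Nfkbia at 142 and 1213 TPM (3.18). The subunits Rela (0.37) and Nfkb1 (0.51) were not called, and Relb (2.53) and Nfkb2 (1.98) were.

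Immediate early genes, which cells switch on within minutes and also during enzymatic tissue digestion, were higher in the library that had been digested at 37 °C. Of 25 genes 23 were called higher and 0 lower, with a median of 3.47. Fos and Ier2, however, were not called and were high in both, Fos at 1414 and 1828 TPM (0.48) and Ier2 at 187 and 211 TPM (0.24). The largest differences were those of Nr4a3 (8.75, 98% interval 8.13 to 9.49), Egr3, Egr2 and Maff. The heat shock genes Hspa1a and Hspa1b, near-identical copies that share reads, went from 24.04 and 12.02 to 1085 and 988 TPM. The digestion is stated for the spinal cord alone, so its part in these genes, and in Nfkbia and Tnfaip3, was not tested. Genes of protein folding stress were called in part. Of 14 active stress response genes 6 were called higher, among them Atf4 (1.56) and its target Ddit3 (1.89). The chaperone gene Hspa5 (0.61) and Xbp1 (-0.21) were not called.

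Genes of movement changed in both directions. Of 20 adhesion genes 7 were called higher and 5 lower. Itga4, whose product carries leukocytes across the blood-brain barrier, fell from 104 to 36.7 TPM (-1.49, 98% interval -1.53 to -1.44), and its partner Itgb7 from 441 to 135 TPM (-1.71), while the other partner, Itgb1, was not called (0.24). Itga5, the fibronectin receptor chain, rose by 1.94 and Icam1 by 3.21, from 19.3 to 169 TPM. Of 16 receptors for chemoattractants 15 were active, 6 called higher and 2 lower, the latter a share near the 14.2% of all active genes. S1pr4, a receptor for the blood lipid sphingosine 1-phosphate, fell from 18.6 to 1.25 TPM (-3.81, 98% interval -4.27 to -3.38) along with Ccr2. Ccrl2, which presents the attractant chemerin, rose from 8.34 to 931 TPM (6.82, 98% interval 6.64 to 7.01), and the chemerin receptor Cmklr1 from 2.91 to 158 TPM (5.77). Ccr1 (1.05) and Fpr1 (0.04) were not called.

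Proteases and clotting factors were called mostly higher. Of 13 matrix proteases and inhibitors 9 were called higher and 1 lower, Mmp8. Mmp14, a membrane-bound collagenase, rose from 1.78 to 198 TPM (7.28, 98% interval 6.91 to 7.68), and Mmp12, the macrophage elastase, from 1.04 to 45.97 TPM (4.28). Timp1, an inhibitor of these enzymes, had 0 reads in bone marrow and 801 in the spinal cord, at least 314-fold higher. Of 16 coagulation genes 15 were active, 8 called higher and 3 lower. F3, tissue factor, which starts clotting, had 1 and 828 reads (9.18, 98% interval 7.19 to 12.68). Plau, urokinase, and its receptor Plaur rose by 3.78 and 2.67. F5 (-2.59), F13a1 and fibronectin, Fn1 (3148 and 1137 TPM, -1.55), were called lower.

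Genes for growth factors had the highest median of the gene lists, taken over active members. Of 16 genes, 14 were active and 12 of those were called higher. The median was 5.79, or 5.73 with genes at 0 reads set at their bound. Vegfa, Inhba, Hbegf and Pdgfa passed the threshold of activity in the spinal cord alone, which largely set their direction and weighs on this median. Over all 16 members the median level was 0.496 TPM in bone marrow and 20.8 TPM in the spinal cord. The same filter acts on the complement, matrix protease and costimulation lists, whose median levels over all members in bone marrow were 1.25, 1.78 and 2.6 TPM. Inhba, which makes activin A, rose from 0.872 to 276 TPM (8.07, 98% interval 7.75 to 8.41). Hbegf, a ligand of the epidermal growth factor receptor, had 1 and 1150 reads (9.66, 98% interval 7.67 to 13.16), and Pdgfa, a platelet-derived growth factor, rose from 0.214 to 17.6 TPM. Tgfb1 was not called, at 170.5 and 257 TPM (0.53), and neither was Hgf (0.28). Igf1 was not active in either library. Of 16 genes of eicosanoid synthesis and sensing 15 were active, with 7 called higher and 3 lower. Ptgs2, the inducible cyclooxygenase, rose from 1.07 to 495 TPM (8.90, 98% interval 8.59 to 9.23), and the prostaglandin receptor Ptger4 from 14.2 to 117 TPM. Alox5 (-2.21), Alox5ap (-1.08) and Lta4h (-1.39), which make leukotriene B4, were called lower, of which Alox5 alone was under scaling on genes with at least 10 reads, while Ltc4s, for leukotriene C4, went from 2 to 67 reads (4.90, 98% interval 3.18 to 7.54).

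Purinergic genes were mostly higher, with 9 of 11 active members called. Nt5e and Entpd1, for CD73 and CD39, which turn extracellular ATP into adenosine, rose from 2 to 1541 reads (9.41, 98% interval 7.75 to 12.02) and from 19.97 to 207 TPM (3.28). The adenosine receptor Adora2a rose from 1.57 to 23.1 TPM (3.89), and P2rx7, the ATP-gated channel, was not called (-0.81). Of 15 active genes of survival and death 8 were called higher and 2 lower. Bcl2a1a, Bcl2a1b and Bcl2a1d, survival genes so alike that reads can be split among them, rose by 7.06, 8.43 and 7.30. Mcl1 rose from 326 to 947 TPM (1.62), and so did the death genes Pmaip1 (3.82) and Bbc3 (1.61). Bid (-1.86) and Xiap (-1.26) were called lower, a share near the 14.2% of all active genes.

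Families of small proteins were divided among their members. Of 13 S100, annexin and galectin genes 6 were called lower, among them S100a4 (2673 and 879 TPM, -1.58) and Anxa1 (659 and 139 TPM, -2.21), and 2 higher, Anxa3 (1.501) and Anxa4 (1.37). With the assumed spread none of them was called in either direction. Of 15 MS4A and CD300 membrane proteins 13 were active, 4 called higher and 4 lower. Cd300lf, an inhibitory receptor, rose from 59.3 to 366 TPM (2.76), and Cd300lb, an activating one, fell from 77.8 to 11.1 TPM (-2.86). Ms4a7, a macrophage gene, rose from 3.78 to 29.4 TPM (2.99), and Ms4a6c fell from 1261 to 586 TPM (-1.17).

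Non-coding genes were called in both directions. Of 498 active long non-coding genes 127 were called higher and 49 lower, which is 25.5% and 9.84%. For 9833 protein-coding genes the shares were 11.6% and 15.3%. The difference between classes was not tested. Malat1, a nuclear RNA, went from 64.9 to 217 TPM (1.77, 98% interval 1.73 to 1.81), while Neat1, the scaffold of nuclear paraspeckles, was not called (0.65). Mir155hg, the host of miR-155, an activator of inflammation, had 1 and 147 reads (6.69, 98% interval 4.69 to 10.20), and Mir22hg rose from 14.5 to 84.7 TPM. The antisense transcript 4930430E12Rik rose from 1.26 to 409 TPM (8.19). The counting is not stated to use strand, so its reads and those of an overlapping gene cannot be told apart. Meg3, a long RNA known from the nervous system, had 0 reads in bone marrow and 946 in the spinal cord, at 0 and 3.85 TPM. Its effective length differed between the libraries, so no fold is given.

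Transcripts of other cells of the spinal cord and of blood were present in the spinal cord library. Of 10 microglia markers 8 were active and 8 called higher, their summed level going from 16.3 to 169 TPM. Tmem119 had 1.54 and 22.2 TPM (3.88, 98% interval 3.502 to 4.30), P2ry12 8.57 and 30.7 TPM (1.73), and Sall1, with 0 and 300 reads, stayed under the threshold of activity. Of 12 T and NK cell markers 8 were active and 7 called higher, with a summed level of 3.802 and 60.7 TPM. Cd4 had 0 and 289 reads, and Cd3e 1 and 138 reads. Of 10 vessel markers 5 were active and 4 called higher, among them Cldn5, the tight junction gene of the blood-brain barrier, with 0 and 256 reads. Astrocyte markers summed to 3.297 and 16.3 TPM, with 3 of 7 called higher, or 1 where reads were divided by effective length, as Gfap and Gja1 lost their calls. Of 10 oligodendrocyte markers 3 were called higher, among them Mobp and Mag, and 1 lower, Mbp (61.7 and 30.5 TPM), whose locus is also read in blood cells. With Mbp included, the summed level of these markers went from 87.4 down to 69.8 TPM. None of 7 neuron markers was active. Most markers called higher here passed the threshold of activity in the spinal cord library alone. That filter largely set the direction of their calls, while the summed levels take in all members.

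The hemoglobin genes Hba-a1, Hba-a2, Hbb-bs and Hbb-bt, copies that can share reads, were called higher, and Hba-a2 went from 1.16 to 60.04 TPM. Ttr, transthyretin, a product of the choroid plexus, had 0 reads in bone marrow and 1967 in the spinal cord, at least 772-fold higher, and was 1 of the 15 protein-coding genes with the largest increase. Of 10 dendritic cell markers 3 were active, all called higher, Batf3 (2.33 and 9.98 TPM), Clec9a (0.0917 and 3.74 TPM) and Fscn1 (0 and 3.23 TPM). They passed the threshold of activity in the spinal cord alone, which largely set their direction. Of 6 markers of CNS-associated macrophages 2 were called higher, Mrc1 (1.24 and 5.63 TPM) and Siglec1 (2.13 and 18.9 TPM). Pf4 (6.56 and 5.82 TPM) and Cbr2 (3.13 and 0.898 TPM) were active and not called. Cd163 (0.288 and 0.122 TPM) was not active. Lyve1, with 0 and 2 reads, did not exceed 3 reads in either library. Of 12 B and plasma cell markers 0 were called higher and 2 lower, Ighm (163 and 18.7 TPM, -3.01) and Cd79b (-1.52). None of 8 markers of mast cells, basophils and eosinophils was active. The part of these cells or of free RNA in the other values was not tested.

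**Figure D5:**
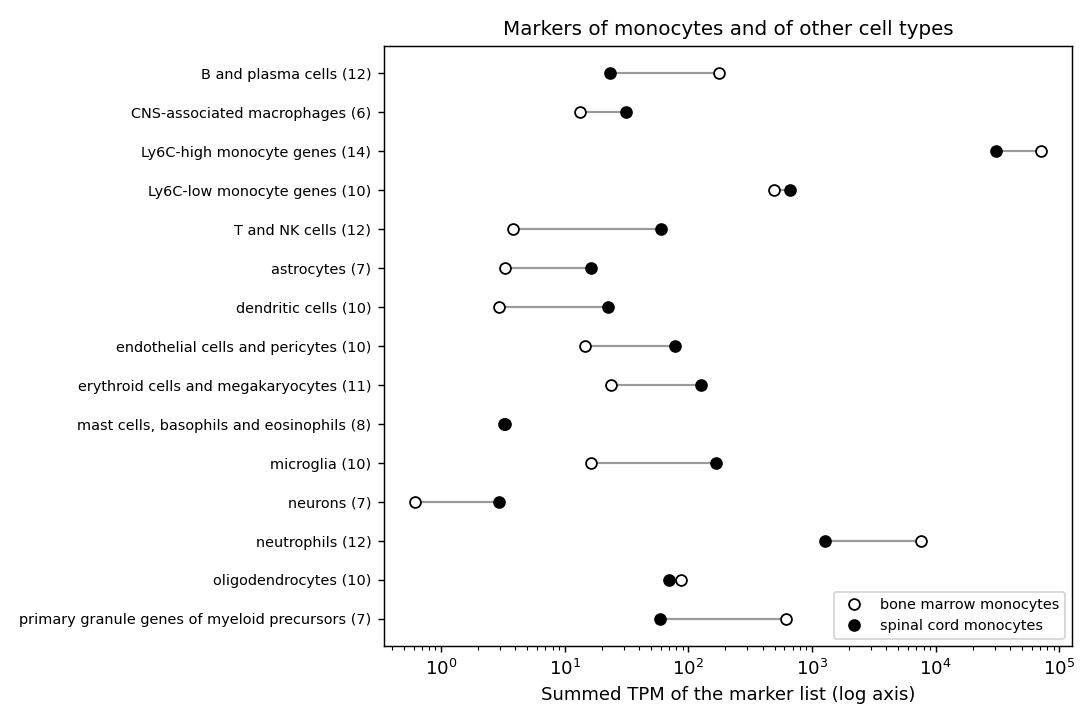
Summed TPM (log axis) of each marker list (number of genes in brackets) in bone marrow (open circles) and spinal cord monocytes (filled circles), 1 pooled library each. Markers of Ly6C-high monocytes are the most abundant in both, at 71049.5 and 30702 TPM. Those of microglia, T and NK cells, vessels and erythroid cells are higher in the spinal cord library. Those of neutrophils, primary granules, B cells and oligodendrocytes are higher in the bone marrow library.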

How the data were processed

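Bone marrow and spinal cord monocytes gave 1 pooled library each, grouped by the submitters' labels. Per the labels and the study's methods, the authors mapped 50-base reads to transcripts of the mouse genome and deposited per gene a TPM value, an effective length and an estimated count of reads. The submitters' processing notes name Salmon 0.14.1 and mm10. The deposited estimated counts were rounded to whole reads. The library of antigen-presenting cells is no side of this comparison and was not used here.

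Log2 ratios of reads, with 1 read added per library, were scaled by the median ratio over genes with reads in both libraries. Their 98% intervals came from gamma distributions and cover counting error only. PCR copies are not independent molecules, so true errors are larger. An active gene (TPM over 3 in at least 1 library) was called where its interval lay beyond 2-fold. The idea of this bound is that of GFold, which was not run. TPM intervals are 95% Wilson intervals. A gene at 0 reads is given as a bound against 3 reads. The script was tested on simulated data. Scaling, filters, interval and an assumed spread were varied. Symbols came from GENCODE M21, which holds 99.8% of the gene identifiers, while the files name a later release. Promoter windows of 250 bases came from RefSeq for GRCm38.p6. A printed window had to be in that table and to hold no annotated exon, a restriction added after the table was seen.

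Named genes were the 15 protein-coding and 5 non-coding genes per direction with the interval bound farthest from 0, the protein-coding ones from 10 TPM in 1 library on, up to 8 members per list chosen by level or fold change, members called against their list, members listed at 0 and the genes of the sort. Other members named were chosen after their values were seen. Some genes are not reported here by name, while counts and medians cover all list members. The comparison and its lists were chosen with earlier results of these data known. The tools were scipy 1.17.1, matplotlib 3.10.9, numpy 2.4.6 and pandas 2.3.3 under Python 3.11.15, with edgeR 4.0.16 in R 4.3.3 for TMM factors alone.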

Additional observations from a re-analysis of the deposited data

How the results depend on the processing

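With 1 library per population no replicate could be left out, and the comparison has no test. No paired analysis was possible because each population has 1 library. Of the 1371 genes called higher and 1587 called lower, the numbers went to 2808 higher and 1805 lower without a filter on TPM, where more genes were open to a call. Under an assumed coefficient of variation of 0.2 there were 915 higher and 579 lower calls, and under 0.4 there were 638 higher and 273 lower calls, since wider intervals leave fewer beyond 2-fold. Intervals beyond 4-fold gave 799 higher and 445 lower calls. Scaling on genes with at least 10 reads in both libraries gave 1659 higher and 1037 lower calls, as it moves every ratio up. The depth limits genes near 3 TPM, while the missing replicates limit all of them.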

Other observations

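Reads and TPM told different stories for a few genes. There were 10215 active genes with at least 100 reads over both libraries together. Of these, 175 (1.71%) had read and TPM ratios apart by over 1 on the log2 scale after the median was removed. Gfap, an astrocyte filament gene, had 7 reads in bone marrow and 256 in spinal cord monocytes, with 1.963 and 4.75 TPM, and its effective length was 142 and 2370 bases. For Gfap the fold change depends on the transcripts to which reads were assigned. Some other genes of this set had 0 reads in 1 library and near-equal effective lengths, such as Cldn5, with 1158 and 1140 bases. There the small amounts added before each ratio, which differ between reads and TPM, weigh on the gap.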
